A study of Homo sapiens with 6 samples.

Results

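The 49 genes described here are interferon-stimulated genes, human genes whose transcription is raised by interferon signaling, and they were taken by their symbols from a table of reads counted on 58735 genes. All 49 symbols were found in the table and lie on 16 chromosomes. The cells were MCF10A, an established line of nonmalignant human breast epithelial cells without an engineered allele in these samples. One group (siControl) received a nontargeting siRNA pool and the other (siDAB2IP) received siRNA against DAB2IP, which encodes a Ras GTPase-activating protein that restrains several signaling pathways. Both groups were transfected with Lipofectamine, were grown in the medium usual for this line (serum, EGF, insulin, cholera toxin and hydrocortisone) and were collected 48 hours after transfection, with 3 libraries in each group. The comparison asks how the interferon-stimulated genes differed between cells with and without depletion of DAB2IP. Because double-stranded RNA can itself trigger an innate response, it also serves as a look at such a response. Both groups received siRNA and no untransfected or mock-transfected library was among the samples, so a response shared by both groups cannot be seen here, and an effect of losing DAB2IP cannot be told apart from one particular to this siRNA.

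Type I and type III interferons bind receptors whose JAK1 and TYK2 kinases act on STAT2, which joins IRF9 in ISGF3, a complex that binds the interferon-stimulated response element (ISRE) of target promoters. Interferon gamma acts through JAK1 and JAK2 and on promoters with the gamma-activated site (GAS), and IRF1 is a well-known target of it. Many of these genes are transcribed at a low level without added interferon, and epithelial cells also raise them after RNA sensors such as RIG-I (DDX58) and MDA5 (IFIH1) detect double-stranded RNA.

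Each library held 16353783 to 21916062 counts, so a count of 0 allows a level of up to 0.139 to 0.187 CPM (the library size-scaled count of a gene, with TMM factors), a limit that covers counting error only. DAB2IP itself (chr9:121567057-121785530) was at 103, 94.2 and 77.4 CPM in the siControl libraries 1, 2 and 3 and at 27.5, 25.6 and 22.4 CPM in the siDAB2IP libraries, without overlap. It fell from 91.6 ± 13.1 CPM (SD, n = 3) in siControl to 25.1 ± 2.57 CPM (SD, n = 3) in siDAB2IP, a log2 fold change of −1.86 with an adjusted p of 9.71e-05 in edgeR's quasi-likelihood test. The library siDAB2IP 3 stood apart: on the first principal component, which held 51.5% of the variance, it lay at 51.1 while the other siDAB2IP libraries lay at 18.1 and 20.4, and 12.8% of its counts were mitochondrial against 9.59 to 10.9% in the other 5 libraries. Markers of basal mammary epithelium were strongly expressed in all libraries, with KRT5 between 1763 and 3879 CPM, and 4 of 7 of them (KRT5, KRT14, KRT6A and KRT17) fell in siDAB2IP. Their summed level was 9265 to 11436 CPM in siControl and 5743 to 7027 CPM in siDAB2IP, and its part in the results below was not tested. Of 7 leukocyte markers 2 could be tested and neither passed: CD14, at 35.9 to 77.2 CPM, and IL3RA, at 3.85 to 9.16 CPM. CD3E had no count, and PTPRC, the pan-leukocyte antigen CD45, had none in 5 of 6 libraries. The summed level of the 7 was 41.2 to 73.9 CPM in siControl and 58.9 to 81.9 CPM in siDAB2IP, most of it CD14, and its part in the results was not tested. Of 3 luminal markers, FOXA1, at 2.99 to 12.2 CPM, rose, ESR1 had too few counts for a test and PGR had no count. The 4 general epithelial markers CDH1, EPCAM, KRT8 and KRT18 did not pass. The fibroblast marker COL1A1 rose from 15.3 ± 1.24 to 26.3 ± 5.44 CPM (SD, n = 3). The other fibroblast and endothelial markers did not: PECAM1 and VWF had log2 fold changes of −0.69 (adjusted p = 0.0919 in edgeR and 0.0499 with a block for the replicate number) and −0.64 (adjusted p = 0.226), and PDGFRA was at 0 to 0.186 CPM in all libraries. In such bulk samples, fewer cells that express a gene and less of its RNA per cell cannot be told apart.

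Of the 49 genes, 46 had enough counts to be tested. Among them 5 rose and 5 fell in siDAB2IP at an adjusted p under 0.05, which is 10.9% in each direction, where 6.55% of all 15430 tested genes were called higher and 7.65% were called lower. The genes that rose were IFI27, IFI6, ISG15, IFI44 and IFI44L, and the genes that fell were IFITM2, PARP14, IFITM3, OAS3 and IRF1. The other 36 did not pass. DESeq2 called the same 10 genes and USP18, which rose, where it called 7.86% of 14090 genes higher and 9.76% lower. The interferon-stimulated genes therefore did not move in one direction: 24 had a fitted value above 0 and 22 below 0. Their median log2 fold change was 0.01, as was that of all genes tested. The range ran from −1.12 to 1.74. Of the 46, the groups did not overlap in 9 members that were higher and in 7 that were lower, where 17.6% and 18.3% of all tested genes did not overlap. A two-sided test of the CPM of a single gene by exact permutation cannot go below p = 0.1 with 3 libraries against 3, which is the value of each of these 16 members. The labels do not say that the 3 libraries of a group came from separate cultures, so the p-values measure the spread between these libraries, which may be technical.

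**Figure D1:**
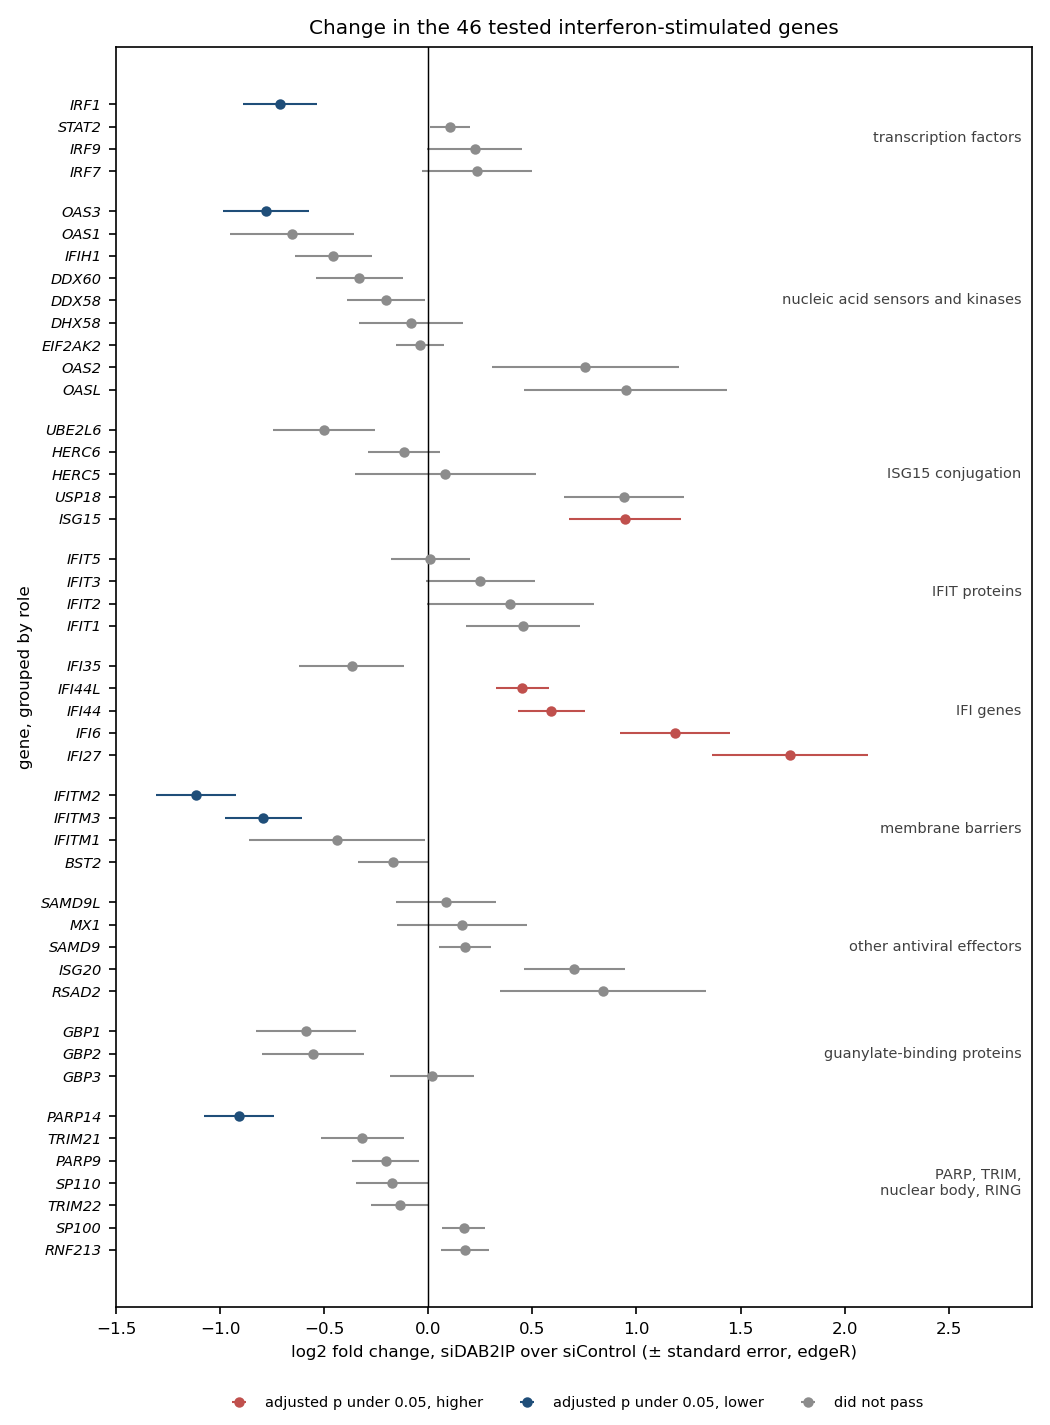
Log2 fold change (siDAB2IP against siControl, horizontal axis) of each of the 46 tested interferon-stimulated genes, with its standard error as a bar and the genes grouped by role. The 5 genes that rose and the 5 that fell are colored, and they lie on both sides of 0, between −1.12 and 1.74.

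Promoter stretches of genes that changed are shown because the ISRE is the element through which ISGF3 acts on this gene class. Promoter windows of 300 bases (250 before to 50 after the transcription start) were taken from RefSeq on GRCh38.p14 for 39 of the 49 members. DHX58, OAS2, OASL, IRF7, USP18, IFIT2, IFITM2, MX2, GBP2 and TRIM22 had no entry. The core of the ISRE, taken as GAAA and GAAA with any 2 bases between them, was searched on both strands, as was the core of the GAS, TTCNNNGAA, which reads alike on both strands, and matches of the 2 motifs were allowed to overlap. The ISRE core was found in 1255 of 35116 promoter windows (3.57%) and for 426 of 10600 tested genes with an entry (4.02%), against 25 of the 39 members (64.1%). Among the members it was present in 5 of 5 genes that rose, in 3 of 4 genes that fell and in 17 of 28 that did not pass. The stretches that span the matches are printed below 5′ to 3′ on the strand of the gene with 8 flanking bases, and the capitals mark the matches of the ISRE core, either in this form or as its reverse complement. They lie at chr1:27672268-27672356 on the minus strand (IFI6), chr14:94110620-94110658 on the plus strand (IFI27), chr1:1013376-1013407 on the plus strand (ISG15), chr1:78649763-78649788 on the plus strand (IFI44), chr1:78620276-78620392 on the plus strand (IFI44L), chr11:320878-320920 on the minus strand (IFITM3) and chr3:122680802-122680827 on the plus strand (PARP14).
IFI6: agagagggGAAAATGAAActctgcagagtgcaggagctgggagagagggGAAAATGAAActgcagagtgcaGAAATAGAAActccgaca
IFI27: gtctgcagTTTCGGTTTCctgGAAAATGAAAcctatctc
ISG15: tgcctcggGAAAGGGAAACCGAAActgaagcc
IFI44: acactgagTTTCAGTTTCctttctct
IFI44L: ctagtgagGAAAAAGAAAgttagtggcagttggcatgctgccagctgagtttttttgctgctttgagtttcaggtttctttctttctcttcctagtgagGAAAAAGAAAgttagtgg
IFITM3: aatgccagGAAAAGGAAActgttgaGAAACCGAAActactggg
PARP14: caggaaacGAAAGCGAAAgagtcaaa

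The first 5 of these genes rose in siDAB2IP and the last 2 fell, so genes of both directions carried the ISRE core. IFI6 held 3 matches within its stretch, and in ISG15 the 2 matches overlapped. OAS3, which also fell, held 2 matches, starting 143 and 12 bases before its start. The window of IRF1 held no ISRE core but 1 GAS core, 124 bases before the start, at chr5:132490881-132490905 on the minus strand, printed here with the GAS core in capitals.
IRF1: agcctgatTTCCCCGAAatgacggc

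The GAS core was found in 2689 of 35116 promoter windows (7.66%), for 881 of 10600 tested genes (8.31%) and for 12 of the 39 members (30.8%). Of the genes that changed, IFI27, IRF1 and PARP14 held it. In IFI27 it overlapped both ISRE matches. A match of letters is a description of the window and no evidence that a factor was bound in these cells.

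The genes named IFI after their induction by interferon held most of the members that rose, with 4 of 5 called higher. IFI27 (ENSG00000165949, chr14:94104836-94116698), which encodes a small mitochondrial protein, was measured at 1.12, 1.21 and 0.939 CPM in the siControl libraries 1, 2 and 3 and at 2.31, 5.76 and 2.899 CPM in the siDAB2IP libraries. Each siDAB2IP library was above each siControl library, and siDAB2IP 2 was the highest. It rose by a log2 fold change of 1.74 (SE 0.38, adjusted p = 0.0156, edgeR), the largest change of any of the 46 tested members, at a low level of 0.260 ± 0.033 FPKM (SD, n = 3) in siControl and 0.872 ± 0.439 FPKM (SD, n = 3) in siDAB2IP.

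IFI6 (ENSG00000126709, chr1:27666061-27672218), whose product limits apoptosis and the replication of flaviviruses, was at 7.79, 10.9 and 11.3 CPM in siControl and at 17.2, 33.5 and 17.6 CPM in siDAB2IP. The groups did not overlap, and siDAB2IP 2 again was the highest library. IFI6 rose by 1.18 on the log2 scale (SE 0.26, adjusted p = 0.0173, edgeR), and within the pairs of libraries with the same replicate number the log2 ratios were 1.10, 1.57 and 0.62.

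IFI44 (ENSG00000137965, chr1:78649796-78664078) and IFI44L (ENSG00000137959, chr1:78619922-78646145) are neighbors and encode related cytoplasmic proteins. IFI44 was at 16.1, 15.2 and 14.0 CPM in siControl and at 20.5, 19.5 and 28.1 CPM in siDAB2IP. IFI44L was at 40.8, 45.7 and 44.3 CPM in siControl and at 54.1, 53.7 and 71.3 CPM in siDAB2IP. In both genes siDAB2IP 3 was the highest library, unlike in IFI27 and IFI6, and the groups did not overlap. IFI44 rose by 0.59 on the log2 scale (SE 0.16, adjusted p = 0.0376, edgeR) and IFI44L by 0.45 (SE 0.13, adjusted p = 0.0415). Without siDAB2IP 3 the log2 fold changes were 0.41 (adjusted p = 0.0506) and 0.31 (adjusted p = 0.0552), and without both libraries numbered 3, an alternative chosen after seeing the data, they were 0.36 and 0.31, with adjusted p-values of 0.105 and 0.0719 in edgeR. The fifth gene, IFI35, was at 4.11 to 4.67 CPM in siControl and at 2.61 to 4.54 CPM in siDAB2IP and did not pass (log2 fold change −0.37, adjusted p = 0.360, edgeR).

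Of the 5 genes that act in ISG15 conjugation, the attachment of the ubiquitin-like protein ISG15 to other proteins, ISG15 was called. ISG15 (ENSG00000187608, chr1:1001138-1014540) was at 1.81, 2.65 and 2.82 CPM in siControl and at 3.67, 5.98 and 4.41 CPM in siDAB2IP. The lowest siDAB2IP library was above the highest siControl library. ISG15 rose by 0.94 on the log2 scale (SE 0.27, adjusted p = 0.0433, edgeR).

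USP18, the protease that removes ISG15 and also restrains signaling at the type I receptor, was at 1.87, 3.34 and 1.64 CPM in siControl and at 4.17, 4.98 and 4.17 CPM in siDAB2IP, again without overlap. Its log2 fold change of 0.94 was close to that of ISG15 and did not pass in edgeR (SE 0.29, adjusted p = 0.0563), but it passed when the replicate number was added as a block (adjusted p = 0.0196). Of its sequence, 15.4% is shared with other genes, chiefly USP41, over stretches of 100 bases. USP18 and USP41 together were at 2.30 ± 0.949 CPM (SD, n = 3) in siControl and at 4.46 ± 0.452 CPM (SD, n = 3) in siDAB2IP, without overlap. The other conjugation genes did not pass: UBE2L6, an E2 enzyme, was at −0.50 on the log2 scale (adjusted p = 0.202, edgeR), and the E3 ligases HERC5 and HERC6 had 0.08 and −0.12.

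**Figure D2:**
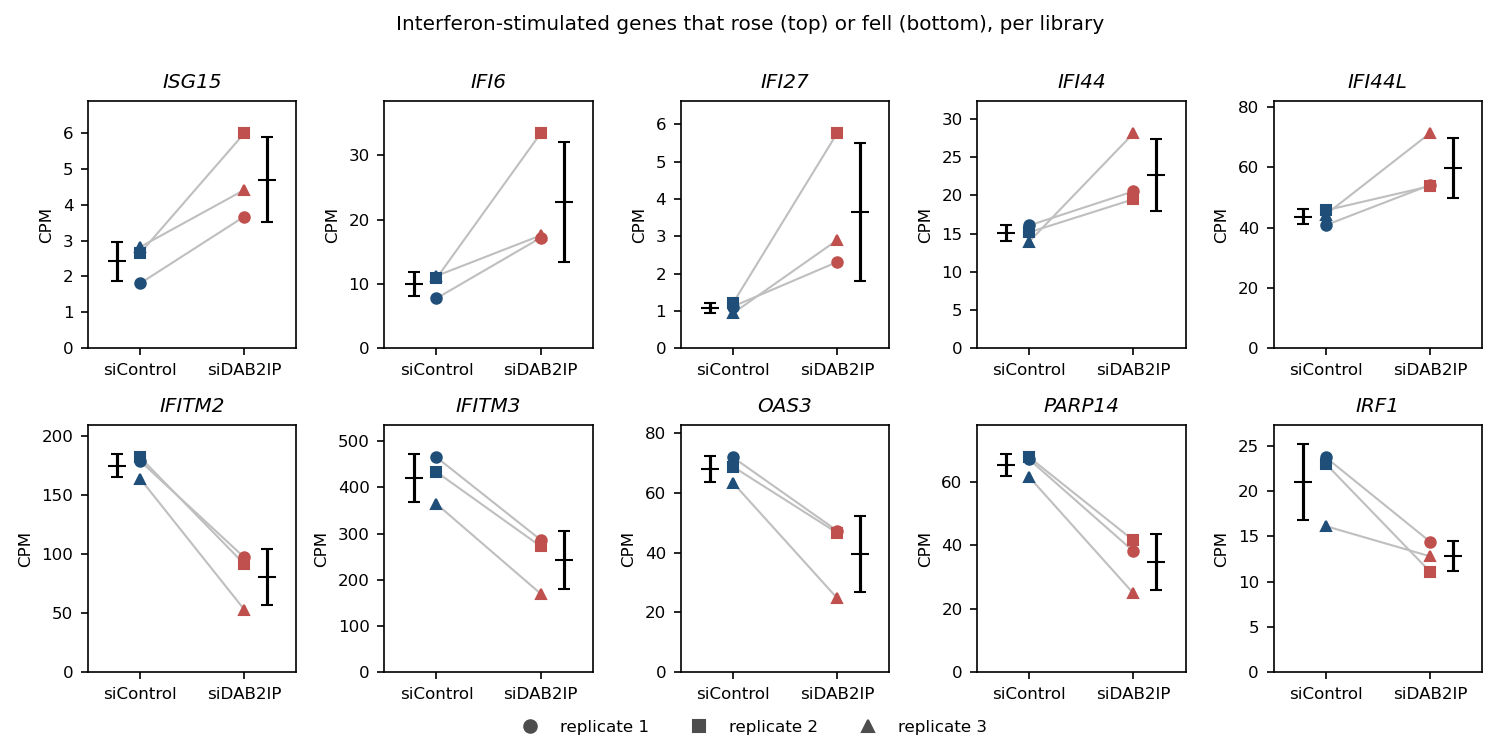
CPM (vertical axes, starting at 0) of the 10 interferon-stimulated genes that changed, in each siControl and siDAB2IP library, with a marker shape per replicate number, gray lines joining libraries of the same number and bars for the mean ± SD (n = 3). In each panel the groups do not overlap, and siDAB2IP 3 is the lowest of the 3 siDAB2IP libraries in 4 of the 5 genes that fell, the exception being IRF1.

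The membrane barriers, proteins that block viral entry or tether budding virus, had the members with the highest level per length and 2 of the 5 that fell. IFITM3 (ENSG00000142089, chr11:319669-327537), which hinders the fusion of viruses with endosomes, was at 465, 433 and 364 CPM in siControl and at 286, 272 and 170 CPM in siDAB2IP. Every siDAB2IP library was below every siControl library, and siDAB2IP 3 was the lowest. It fell by 0.79 on the log2 scale (SE 0.19, adjusted p = 0.0215, edgeR). Per length, it was the highest of the 49 genes, at 309 ± 37.9 FPKM (SD, n = 3) in siControl and 178 ± 46.8 FPKM (SD, n = 3) in siDAB2IP.

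IFITM2 (ENSG00000185201, chr11:307631-315272), a close relative on the same chromosome, was at 179, 182 and 164 CPM in siControl and at 97.2, 91.6 and 53.1 CPM in siDAB2IP. The groups were far apart, with siDAB2IP 3 again the lowest. IFITM2 fell by 1.12 on the log2 scale (SE 0.19, adjusted p = 0.00595, edgeR), the largest fall of the tested members, and it remained called when any one library was left out (adjusted p between 0.000166 and 0.0274).

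IFITM1, a relative found mainly at the cell surface, was at 15.1, 11.7 and 8.45 CPM in siControl and at 11.7, 11.5 and 2.78 CPM in siDAB2IP. Here the groups overlapped, and siDAB2IP 3 lay far below the other libraries. Its log2 fold change was −0.44 (adjusted p = 0.534, edgeR). Of its sequence, 27.5% is shared with other genes over stretches of 100 bases, mostly with IFITM2. The exons of IFITM2 overlap 351 of its bases on the same strand. IFITM2 and IFITM3 shared 18.2% and 17.1% with other genes. Reads from shared stretches may be divided between genes or left out in counting, and which of these happened was not checked. Most of the sequence that IFITM3 shares is with the antisense gene AC136475.5. The sum of IFITM1, IFITM2 and IFITM3 was 607 ± 63.5 CPM (SD, n = 3) in siControl and 332 ± 92.5 CPM (SD, n = 3) in siDAB2IP, without overlap of the groups. A division of reads among these 3 would not change this sum. Reads left out of counting, or counted for AC136475.5, would be missing from it. BST2 (tetherin), which holds budding virus at the cell surface, was at 46.9, 51.3 and 38.8 CPM in siControl and at 41.2, 49.6 and 31.0 CPM in siDAB2IP, and its log2 fold change of −0.17 did not pass (adjusted p = 0.553, edgeR).

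IFITM2 and IFITM3 made up most of the difference between the groups in the summed level of the class. All 49 genes together amounted to 1555 ± 81.2 CPM (SD, n = 3) in siControl and 1254 ± 165 CPM (SD, n = 3) in siDAB2IP. Without IFITM2 and IFITM3, the other 47 amounted to 960 ± 21.7 CPM (SD, n = 3) and 930 ± 88.2 CPM (SD, n = 3), a difference smaller than the spread in siDAB2IP.

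**Figure D3:**
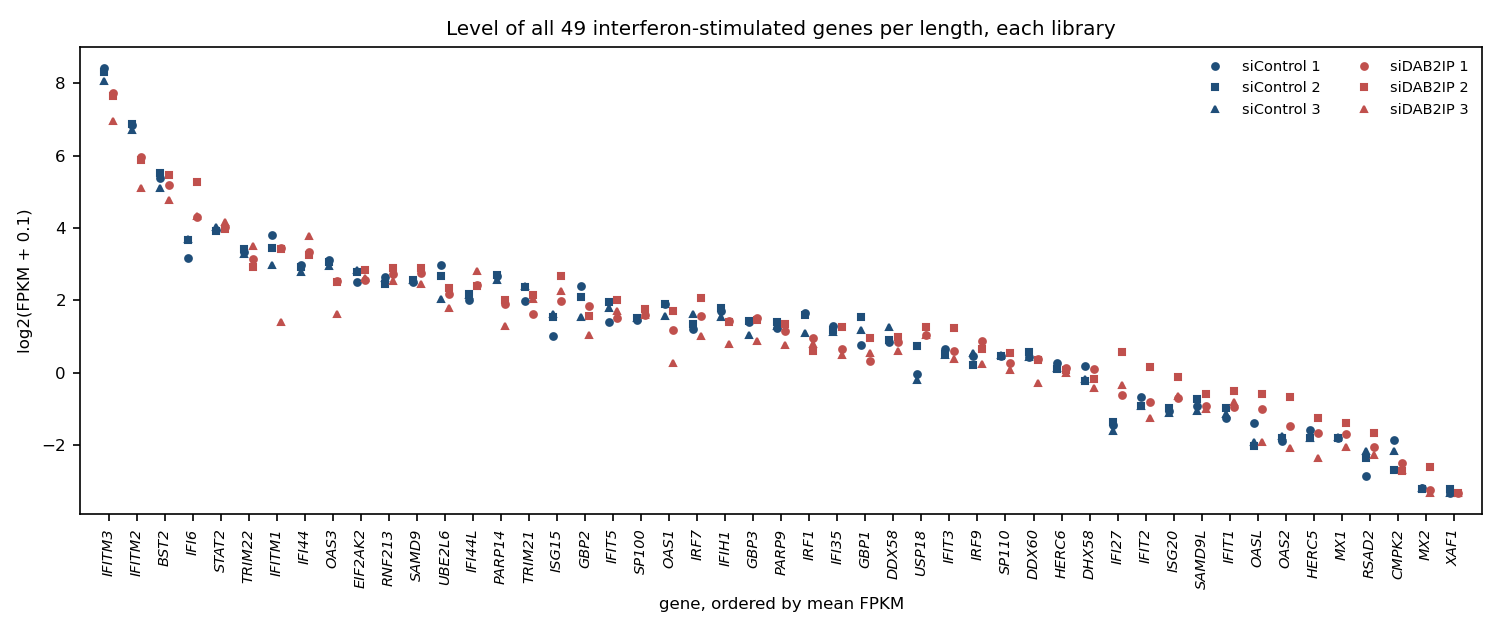
Level per length, as log2(FPKM + 0.1), of all 49 interferon-stimulated genes in each of the 6 libraries, ordered by mean FPKM. Levels span from IFITM3 at the upper end to XAF1, with a single count in all libraries, at the lower end, and 15 of the 49 genes lie under a mean of 1 FPKM.

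Per length, 34 of the 49 genes had a mean of at least 1 FPKM over the 6 libraries and 5 had at least 10 FPKM: IFITM3, IFITM2, BST2, IFI6 and STAT2. The order of neighbors in this ranking often does not exceed their spread. In siDAB2IP, for example, the neighbors TRIM22 at 9.11 ± 1.85 FPKM (SD, n = 3) and IFITM1 at 7.93 ± 4.67 FPKM (SD, n = 3) lie within each other's SD. Several genes that respond strongly to interferon were near the lower end, among them MX1 at 0.187 ± 0.001 FPKM and IFIT1 at 0.361 ± 0.045 FPKM in siControl (SD, n = 3). MX2, CMPK2 and XAF1 had too few counts for a test. MX2 was at 0.093 to 0.125 CPM in siControl and at 0.056, 0.831 and 0 CPM in siDAB2IP, and CMPK2 at 0.222 to 0.748 CPM in all 6 libraries. XAF1 had 1 count in all.

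The nucleic acid sensors and kinases, which detect viral RNA, had 1 of 9 members called, which fell. OAS3 (ENSG00000111331, chr12:112938352-112973249), which makes the 2′-5′ oligoadenylates that activate RNase L, was at 71.8, 68.7 and 63.3 CPM in siControl and at 47.3, 46.6 and 24.8 CPM in siDAB2IP. The groups did not overlap, and siDAB2IP 3 was the lowest. OAS3 fell by 0.78 on the log2 scale (SE 0.21, adjusted p = 0.0332, edgeR).

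Its neighbor OAS1 was at 18.2, 18.1 and 14.2 CPM in siControl and at 10.8, 15.7 and 5.57 CPM in siDAB2IP. The groups overlapped, since siDAB2IP 2 exceeded siControl 3. Its log2 fold change of −0.65 did not pass in edgeR (SE 0.30, adjusted p = 0.172) and passed with the replicate number as a block (adjusted p = 0.0330). OAS2 and OASL, at 0.511 to 3.32 CPM in the 6 libraries, had fitted log2 fold changes of 0.75 (adjusted p = 0.294, edgeR) and 0.95 (adjusted p = 0.224). With 1 library left out these ran from 0.12 to 1.10 for OAS2 and from 0.53 to 1.30 for OASL. In both genes siDAB2IP 2 was the highest library, at 3.32 and 1.99 CPM. Neither passed, the groups of both overlapped, and OASL met the count filter through the siDAB2IP libraries alone.

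Of the RNA helicases that signal through MAVS, IFIH1 (MDA5) was at 16.2, 17.1 and 14.4 CPM in siControl and at 13.2, 13.1 and 8.47 CPM in siDAB2IP, without overlap. Its log2 fold change of −0.46 did not pass in edgeR (SE 0.18, adjusted p = 0.129) and passed with the replicate block (adjusted p = 0.0456). DDX58 (RIG-I) was at 7.41, 7.66 and 10.0 CPM in siControl and at 7.39, 8.20 and 6.20 CPM in siDAB2IP, and its groups overlapped (log2 fold change −0.20, adjusted p = 0.521, edgeR). EIF2AK2 (PKR), the kinase that halts translation on binding double-stranded RNA, was at 60.8, 72.7 and 76.5 CPM in siControl and at 63.1, 75.9 and 65.2 CPM in siDAB2IP. Its libraries were intermingled, with a log2 fold change of −0.04 (adjusted p = 0.860, edgeR). The remaining helicases did not pass either, with −0.08 for DHX58 and −0.33 for DDX60.

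Among the 4 transcription factors, IRF1 was called. IRF1 (ENSG00000125347, chr5:132481609-132490798), an early activator of both interferon and interferon-stimulated genes, was at 23.7, 23.0 and 16.1 CPM in siControl and at 14.4, 11.1 and 12.8 CPM in siDAB2IP. The groups did not overlap, and siControl 3 lay nearest to the siDAB2IP libraries. IRF1 fell by 0.71 on the log2 scale (SE 0.18, adjusted p = 0.0264, edgeR). On the opposite strand, C5orf56 overlaps 1716 bases of its exons at a mean of 1.13 CPM, and whether the counting used the strand is not given in the sources used here.

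The ISGF3 subunits STAT2 and IRF9 did not pass. STAT2 was at 95.1, 91.5 and 99.2 CPM in siControl and at 100, 96.5 and 110 CPM in siDAB2IP (log2 fold change 0.10, SE 0.09, adjusted p = 0.507, edgeR). IRF9 was at 4.86, 3.99 and 5.23 CPM in siControl and at 6.60, 5.65 and 4.12 CPM in siDAB2IP (log2 fold change 0.22, adjusted p = 0.561, edgeR), and 39.1% of its sequence is shared with the readthrough gene AL136295.5. IRF7, the factor that amplifies type I interferon production, was at 5.79, 6.41 and 7.81 CPM in siControl and at 7.56, 10.9 and 5.04 CPM in siDAB2IP (log2 fold change 0.23, adjusted p = 0.604, edgeR). In IRF9 and IRF7 the siDAB2IP libraries 1 and 2 lay above their siControl counterparts of the same number and siDAB2IP 3 lay below its own.

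The PARP, TRIM, nuclear body and RING genes had 1 of 7 members called, PARP14 (ENSG00000173193, chr3:122680618-122730840), an ADP-ribosyltransferase. PARP14 was at 67.0, 67.7 and 61.5 CPM in siControl and at 38.1, 41.5 and 24.9 CPM in siDAB2IP. The groups were widely separated. It fell by 0.91 on the log2 scale (SE 0.17, adjusted p = 0.00799, edgeR) and, like IFITM2, remained called without any one library (adjusted p between 0.00095 and 0.0354).

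PARP9, a family member that acts with DTX3L and overlaps it by 217 exon bases on the opposite strand, did not pass (log2 fold change −0.20, adjusted p = 0.438, edgeR). DTX3L was at a mean of 38.6 CPM and fell by 0.85 on the log2 scale (adjusted p = 0.00264, edgeR). TRIM22, an antiviral ubiquitin ligase, was at 61.1, 63.6 and 58.3 CPM in siControl and at 52.7, 45.7 and 67.9 CPM in siDAB2IP, where siDAB2IP 3 was the highest of the 6 libraries (log2 fold change −0.14, adjusted p = 0.553, edgeR). TRIM21, SP100, SP110 and RNF213 had log2 fold changes of −0.32, 0.17, −0.17 and 0.17, none of which passed.

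None of the 4 IFIT genes, which encode proteins that bind foreign RNA and hold back its translation, passed, and their summed level was 20.3 ± 2.29 CPM (SD, n = 3) in siControl and 22.3 ± 5.66 CPM (SD, n = 3) in siDAB2IP. IFIT1, often used as a readout of interferon signaling, was at 1.495, 1.90 and 1.64 CPM in siControl and at 1.92, 2.82 and 2.20 CPM in siDAB2IP. The groups did not overlap, but siControl 2 and siDAB2IP 1 nearly met, and the log2 fold change of 0.45 did not pass (SE 0.28, adjusted p = 0.303, edgeR). IFIT2, IFIT3 and IFIT5 had log2 fold changes of 0.39, 0.25 and 0.01. The exons of IFIT2, at 1.90 ± 0.241 CPM (SD, n = 3) in siControl, overlap LIPA by 65 bases on the opposite strand. LIPA was at a mean of 115 CPM and fell by 1.36 on the log2 scale (adjusted p = 9.71e-05, edgeR).

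The other antiviral effectors had none of 5 tested members called by edgeR. An unadjusted p under 0.05 was reached in edgeR by 4636 of all 15430 tested genes and by 1 of these 5 members. That gene was ISG20, an exonuclease of single-stranded RNA, at 2.80, 3.02 and 2.70 CPM in siControl and at 3.84, 6.04 and 4.001 CPM in siDAB2IP, without overlap. Its log2 fold change of 0.70 (SE 0.24) had an adjusted p of 0.0825 in edgeR and of 0.0497 with the replicate block. MX1, a dynamin-like GTPase that traps viral nucleocapsids, was at 1.62, 1.62 and 1.64 CPM in siControl and at 1.81, 2.44 and 1.22 CPM in siDAB2IP. The siControl libraries were nearly equal and the siDAB2IP libraries lay on both sides of them (log2 fold change 0.16, adjusted p = 0.779, edgeR). RSAD2 (viperin), SAMD9 and SAMD9L had log2 fold changes of 0.84, 0.18 and 0.09.

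The guanylate-binding proteins, GTPases that attack the membranes around intracellular pathogens and respond chiefly to interferon gamma, had none of 3 members called by edgeR and 2 at an unadjusted p under 0.05. Of all 15430 genes tested in edgeR, 4636 had an unadjusted p under 0.05, 2398 of them lower. GBP1 was at 7.98, 14.0 and 10.9 CPM in siControl and at 5.81, 9.30 and 6.84 CPM in siDAB2IP. GBP2 was at 33.0, 26.3 and 17.7 CPM in siControl and at 21.9, 18.1 and 12.5 CPM in siDAB2IP. In both genes the groups overlapped while each siDAB2IP library lay below the siControl library of the same number. Accordingly, the log2 fold changes of −0.59 (GBP1) and −0.55 (GBP2) did not pass in edgeR (adjusted p = 0.132 and 0.162) and passed with the replicate block (adjusted p = 0.0240 and 0.0109). GBP3 had a log2 fold change of 0.02.

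The libraries of equal number were compared because their deviations from the group means correlated across the 15430 tested genes, at 0.26, 0.15 and 0.25. With the replicate number as a block, 7 members rose and 9 fell, where 9.59% and 11.4% of all tested genes were called. The 6 members that this added were USP18 and ISG20, which were higher, and OAS1, IFIH1, GBP1 and GBP2, which were lower. In pair 1, 21 of the 46 tested members were higher in siDAB2IP than in siControl, in pair 2, 29 were, and in pair 3, 12 were. For single pairs the share over all tested genes was not computed, so these counts cannot be set against it. All 3 pairs gave the higher direction in 10 members (21.7%, against 27.9% of all tested genes) and the lower direction in 16 (34.8%, against 28.3%).

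**Figure D4:**
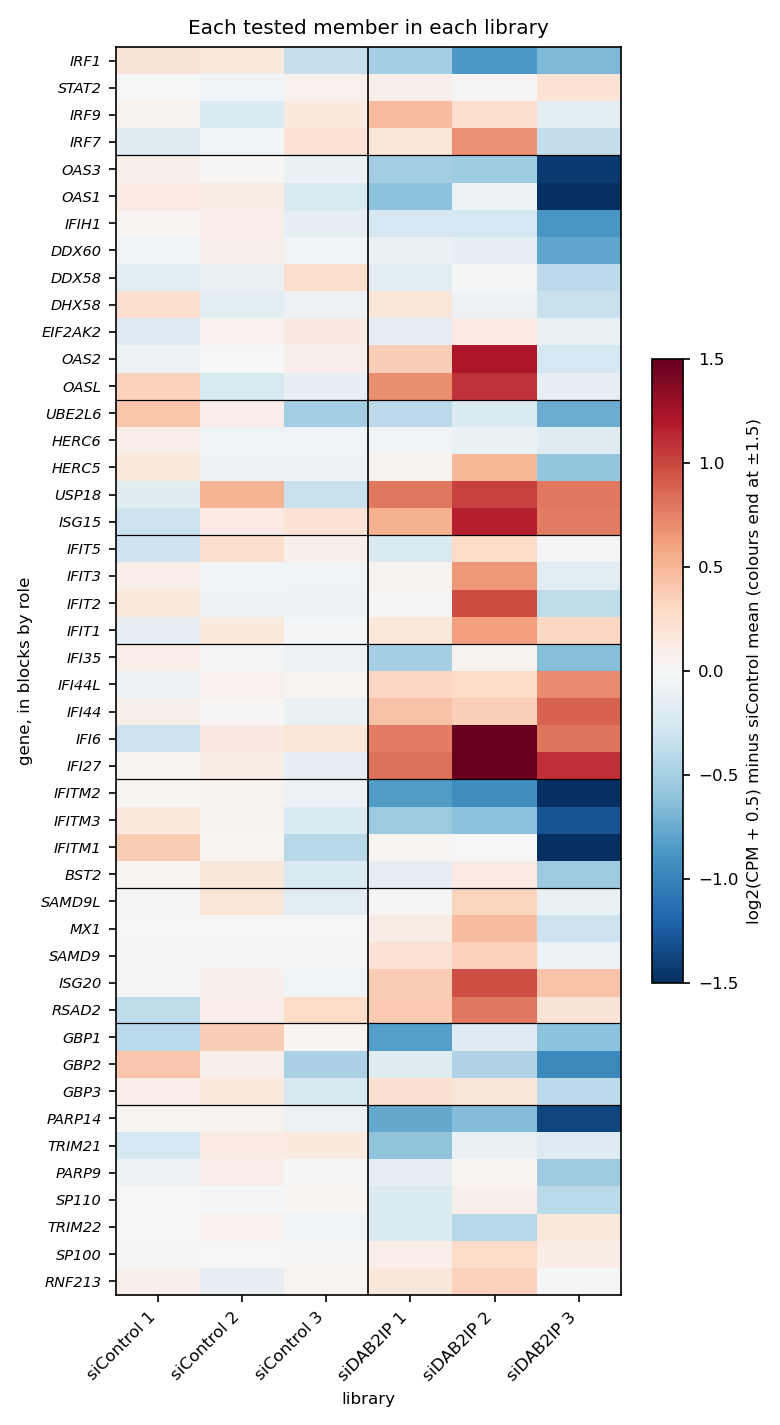
Each of the 46 tested interferon-stimulated genes (rows, in blocks by role) in each of the 6 libraries (columns), as log2(CPM + 0.5) minus the siControl mean of the gene, with colors that end at ±1.5. Among the siDAB2IP columns, library 2 is the highest in 30 of the 46 genes and library 3 the lowest in 30, with IFI44 and IFI44L among the exceptions.

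The 3 siDAB2IP libraries differed from one another over the class. Among them, siDAB2IP 2 had the highest CPM in 30 of the 46 tested members (65.2%) and siDAB2IP 3 the lowest in 30 (65.2%), whereas over all tested genes these libraries were the highest in 33.8% and the lowest in 42.1%. The median log2 ratio of the members to their siControl mean was 0.02 in siDAB2IP 1, 0.15 in siDAB2IP 2 and −0.29 in siDAB2IP 3, against a median of 0.01 over all tested genes in each. In siControl, the same medians were 0.02, 0.06 and −0.06. Of the siDAB2IP libraries, most members thus lay lowest in the one that also had the highest mitochondrial share, and the part of that share was not tested.

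Leaving out 1 library at a time changed which members were called, with 0 to 4 rising and 2 to 5 falling by edgeR. IFITM2 and PARP14 fell in all 6 of these fits. IFI6 and IFITM3 were lost without siControl 1 (adjusted p = 0.0737 and 0.0665) and without siControl 2 (adjusted p = 0.0604 and 0.0693). IFI27 and OAS3 were lost without any one siControl library, with adjusted p-values of 0.0567 to 0.0618 and of 0.0620 to 0.0912. IRF1 was lost without siControl 1 (adjusted p = 0.0873), siControl 2 (0.110) and siDAB2IP 2 (0.0728). ISG15 was lost without any one siControl library (0.0844 to 0.140) and without siDAB2IP 2 (0.129). IFI44 and IFI44L kept their call in 1 fit, the one without siDAB2IP 2, and had adjusted p-values up to 0.140 and 0.154 in the others. USP18 passed without siControl 2 (0.0363) and without siDAB2IP 3 (0.0499), and OAS1 fell without siDAB2IP 2. Without both libraries numbered 3, IFI27, IFI6 and ISG15 rose, and GBP2, IFITM2, IFITM3, IRF1, OAS3, PARP14 and UBE2L6 fell, where 6.83% of 15502 tested genes were called higher and 8.41% lower.

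The genes upstream and beside the class were followed with a list of 59 further genes of the interferon pathway, of which 44 could be tested: 1 rose (2.27%, against 6.55% of all tested genes) and 8 fell (18.2%, against 7.65%). The median log2 fold change was −0.16, with 14 positive and 30 negative values, against a median of 0.01 over all tested genes. The list was chosen with earlier results of these data known, so these shares and this median are a description and no test. Of the 7 interferon ligands in the list, IFNE had enough counts to be tested. IFNB1 and IFNL1, the ligands that epithelial cells make in response to double-stranded RNA, had no count in any library, nor had IFNL2, IFNK and IFNG. All libraries were from 48 hours after transfection, so an induction that had ended before then would not be seen. The 20 genes for interferon alpha, beta, kappa, omega, lambda and gamma together had 10 counts in the 6 libraries, 8 of them in siControl. IFNE, which some epithelia make without infection, was at 0.125 to 1.41 CPM in siControl and at 0.790 to 1.11 CPM in siDAB2IP and did not pass (adjusted p = 0.827, edgeR).

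Of the chemokines that interferon induces, CXCL9 had no count. CXCL10 was at 0.125, 0.279 and 0 CPM in siControl and at 0, 0 and 0.058 CPM in siDAB2IP. CCL5 was at 0.062, 0.046 and 0.117 CPM in siControl and at 0.113, 0.498 and 0.232 CPM in siDAB2IP. These are levels of 0 to 9 counts a library, at which no difference was tested. The endosomal RNA sensors TLR7 and TLR8 had no count, and TLR3, the endosomal sensor of double-stranded RNA, was at 19.2, 24.3 and 18.8 CPM in siControl and at 19.7, 21.2 and 28.6 CPM in siDAB2IP (log2 fold change 0.16, adjusted p = 0.592, edgeR).

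The receptors and their kinases included 3 genes that fell. JAK1, the kinase shared by all 3 interferon receptor types, was at 99.9, 106 and 105 CPM in siControl and at 58.5, 60.6 and 54.0 CPM in siDAB2IP. The groups were far apart, and JAK1 fell by 0.84 on the log2 scale (SE 0.09, adjusted p = 0.000862, edgeR), with adjusted p-values of 0.000261 to 0.00777 when any one library was left out. IFNGR1, the ligand-binding chain for interferon gamma, was at 406, 438 and 362 CPM in siControl and at 313, 248 and 293 CPM in siDAB2IP and fell by 0.50 (SE 0.12, adjusted p = 0.0264, edgeR).

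IFNAR2, the chain that binds type I interferon most tightly, was at 1.495, 1.95 and 2.70 CPM in siControl and at 0.903, 0.665 and 0.812 CPM in siDAB2IP. It fell by 1.36 (SE 0.34, adjusted p = 0.0268, edgeR) at a level of 12 to 46 counts a library. Sequence shared with other genes was measured for the members only. Whether such sharing lowered the counts of IFNAR2 was not tested.

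**Figure D5:**
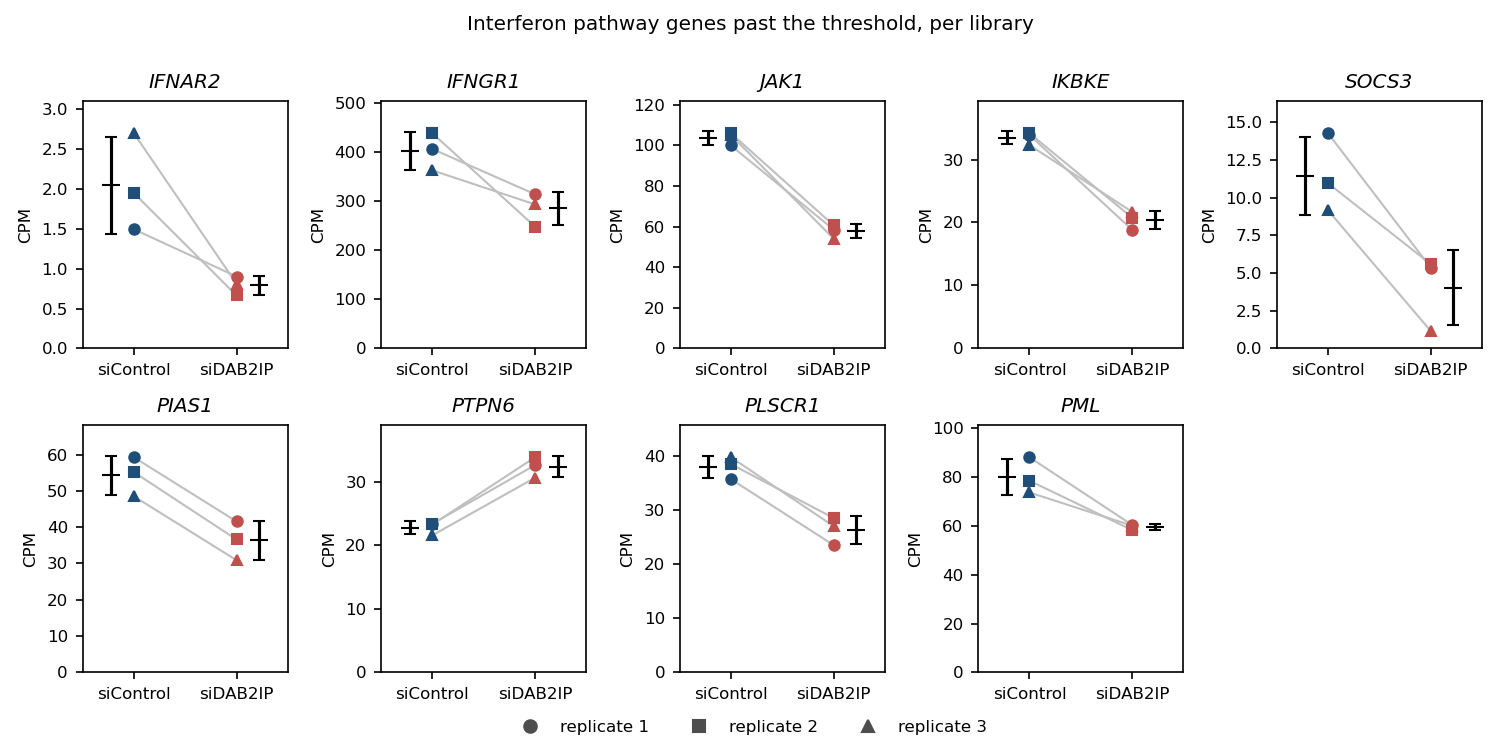
CPM (vertical axes, starting at 0) of the 9 further interferon pathway genes that changed, in each siControl and siDAB2IP library, with a marker shape per replicate number, gray lines joining libraries of the same number and bars for the mean ± SD (n = 3). PTPN6 rose and the other 8 fell, and JAK1 has the smallest spread within groups relative to the difference between them.

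Among the sensors and adaptors, IKBKE, a kinase that phosphorylates IRF3, was at 33.9, 34.2 and 32.3 CPM in siControl and at 18.8, 20.8 and 21.7 CPM in siDAB2IP. It fell by 0.71 on the log2 scale (SE 0.11, adjusted p = 0.00433, edgeR). Among the negative regulators, SOCS3, an inhibitor of JAK kinases, was at 14.3, 10.96 and 9.16 CPM in siControl and at 5.36, 5.59 and 1.16 CPM in siDAB2IP and fell by 1.498 (SE 0.42, adjusted p = 0.0419, edgeR). In DESeq2 it did not pass (adjusted p = 0.0932). The exons of PIAS1, an inhibitor of STAT signaling, overlap CALML4 by 3260 bases and AC107871.1 by 2933 bases on the opposite strand. These genes were at means of 0.896 and 5.08 CPM, and strand use in counting is not given. PIAS1 was at 59.3, 55.2 and 48.5 CPM in siControl and at 41.6, 36.6 and 30.9 CPM in siDAB2IP and fell by 0.58 (SE 0.13, adjusted p = 0.0180, edgeR). PTPN6 (SHP-1), a phosphatase that acts on JAK kinases, moved the other way, from 23.4, 23.3 and 21.6 CPM in siControl to 32.7, 33.9 and 30.7 CPM in siDAB2IP, and rose by 0.51 (SE 0.11, adjusted p = 0.0152, edgeR).

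Of 14 tested further interferon-responsive genes, 2 fell. PLSCR1, a phospholipid scramblase, was at 35.7, 38.5 and 39.7 CPM in siControl and at 23.5, 28.5 and 27.0 CPM in siDAB2IP and fell by 0.53 (SE 0.12, adjusted p = 0.0161, edgeR). PML, the organizer of nuclear bodies, was at 88.2, 78.6 and 73.7 CPM in siControl and at 60.4, 58.3 and 60.1 CPM in siDAB2IP and fell by 0.43 (SE 0.10, adjusted p = 0.0195, edgeR). In all 9 called pathway genes the groups did not overlap. Among all 44 tested genes of the list, 4 were higher and 15 lower without overlap, against 17.6% and 18.3% of all tested genes. With the replicate block, 3 genes of this list rose and 12 fell, where 9.59% of all tested genes were called higher and 11.4% lower.

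JAK1 and IKBKE fell whichever library was left out. The calls of the other 7 pathway genes in edgeR depended on single libraries. IFNGR1 was lost without siControl 1 (adjusted p = 0.0677), siControl 2 (0.114) or siDAB2IP 2 (0.0795). IFNAR2 was lost without siControl 2 (0.0891), siControl 3 (0.107), siDAB2IP 1 (0.0543) or siDAB2IP 2 (0.0741). SOCS3 was lost without any one siControl library (0.0683 to 0.129) and PIAS1 without siControl 1 (0.0574) or siControl 2 (0.0667). PLSCR1 was lost without siControl 2 (0.0723), siControl 3 (0.0592) or siDAB2IP 1 (0.0593), and PML without siControl 1 (0.0565), siControl 2 (0.0674), siDAB2IP 1 (0.0520) or siDAB2IP 2 (0.0548). PTPN6, the gene that rose, was lost without siControl 2 (0.0717) or siControl 3 (0.0658).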

How the data were processed

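RNA-Seq libraries of MCF10A cells, 3 siControl and 3 siDAB2IP, were analyzed as labeled. The authors deposited whole-number counts per gene without normalization, and FPKM values, for which the deposited counts were divided by gene length and a scaled total per library (98.9 to 104.7% of the counts). The submitters' processing notes name hg38, STAR 2.6.1d, featureCounts 1.5.0-p3, DESeq2 1.20.0 and edgeR 3.24.3, and strand use is not given in the sources used here. All 58735 genes had the start, end and strand of GENCODE release 29.

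Counts were filtered (filterByExpr by group), TMM-scaled and tested with edgeR 4.0.16 (glmQLFit, glmQLFTest) in R 4.3.3, with Benjamini-Hochberg adjustment over 15430 genes and a call at adjusted p under 0.05. The filter was met by both groups alone in 43 of the 46 tested members, and by 1 group alone in OASL (siDAB2IP) and HERC5 (siControl). RSAD2 met it only over all libraries. Standard errors were taken from the F statistic. No covariate was used. Replicate numbers in the labels were taken to pair the libraries, since same-numbered libraries correlated at 0.26, 0.15 and 0.25 and others at −0.28 to 0.02. Ratios within pairs used log2(CPM + 0.5).

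Alternatives were DESeq2 1.42.0, RLE or library size scaling, other filters, an adjusted p under 0.01, the replicate block, limma 3.58.1 with a trend on log2(FPKM + 1) and log2(FPKM + 0.1), and each library left out. The scripts were tested on simulated data. Members, roles and lists were chosen with earlier results of these data known. Values in each library are given for DAB2IP, members called in either fit, the 10 members highest in FPKM, and chosen transcription factors, canonical responders and RNA sensors; for the pathway list, for called genes, IFNB1, IFNL1, TLR3, CXCL10 and CCL5. Some listed genes are not reported here. Other genes are named with fewer values. Shared sequence, measured for the members only, is the share of 100-base stretches found in other GENCODE 29 genes.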

Additional observations from a re-analysis of the deposited data

How the results depend on the processing

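Of 619 values of 37 named genes under the alternatives, 500 kept their direction and side of the threshold, 95 lost the call, 16 gained it and 8 changed sign, none of these in a called gene. DESeq2, RLE size factors, scaling by library size alone and at least 10 counts in every library each kept the 5 members that rose and the 5 that fell, and DESeq2 and library size scaling added USP18. DESeq2 called 2 pathway genes higher and 10 lower. The replicate block, in which same-numbered libraries are paired, gave 9 members that fell and 3 pathway genes that rose, and no called gene lost its call. Without a filter on low counts, 6 members rose, 8 fell, 2 pathway genes rose and 13 fell, with 2937 of 29567 genes called in all. With limma on log2(FPKM + 0.1), 2 members rose, 2 fell and 1417 genes were called in all, against 2192 with edgeR. This fit tested the 12412 genes with a mean of at least 1 FPKM, 34 of them members, against 15430 and 46 with edgeR. IFI27 was not tested in it. With log2(FPKM + 1), 2 of the 34 tested members rose and 3 fell, and 1501 of 12412 genes were called in all. On log2(FPKM + 1) without a filter, limma called 378 genes, with 0 members rising and 0 falling, and 0 pathway genes rising and 2 falling. At an unadjusted p under 0.05 in this fit, 6 members were higher and 5 lower, and 3 pathway genes were higher and 15 lower. Over all 29567 genes, 4908 were under it. At an adjusted p under 0.01 edgeR called 622 genes, with 0 members and 0 pathway genes rising and 2 members and 2 pathway genes falling. Over all 15430 genes tested in edgeR, 2238 were higher and 2398 lower at an unadjusted p under 0.05. The same counts were 7 and 8 of the 46 tested members and 3 and 16 of the 44 tested pathway genes. Without both libraries numbered 3, 3 members rose. Leaving out 1 library gave 723 to 2524 calls over all genes, 0 to 4 members rising and 2 to 5 falling, and 0 to 3 pathway genes rising and 2 to 9 falling. The sign of the log2 fold change turned for DDX58 (0.046), EIF2AK2 (0.055) and TLR3 (−0.10) without both libraries numbered 3. With 1 library left out it turned in 10 of the 46 tested members, none of them called: DHX58, GBP3, HERC5, IFIT2, IFIT3, IFIT5, SAMD9L, EIF2AK2, IRF7 and MX1. Among the genes given in every library, it turned for EIF2AK2 without siControl 3 or siDAB2IP 1 (range −0.15 to 0.011), for IRF7 (−0.081 to 0.47) and MX1 (−0.11 to 0.38) without siDAB2IP 2, and for TLR3 (−0.026 to 0.27) without siDAB2IP 3. The causes were not tested. With 3 libraries a group and members such as IFIT1 and MX1 under 3 CPM, differences in the low members may have been missed. How large a difference could be detected was not tested.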
